A study of Danio rerio with 15 samples.

Results

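In venous tissue of zebrafish larvae, 120 genes had their highest mean level 3 h after a laser injury. As a set they were back near the uninjured level in the libraries taken at 6 h, though single genes lay above or below it. The 120 genes were chosen by their measured values. Levels were given as FPKM, which counts sequenced fragments relative to the length of the transcript and to the size of the library. A gene qualified when its mean log2(FPKM + 1) at 3 h was at least 1.5 above the mean of each of the other 4 groups and its lowest 3 h library lay above all control and all 6 h libraries. Of 13051 genes with an FPKM of at least 1 in at least 3 of the 15 libraries, 131 met these numbers. The rule also left out 22 genes by name, of which 11 met the numbers (lepb, MMP9, SOCS1, HMOX1, fthl31, FOSL1, PFKFB3, PDK2, tcap, cbx7a and hspb9). The remaining 120 members were 0.919% of the genes kept. Because the 3 h values chose the members, their 3 h levels are a description and no test sets 3 h against another group. The contrasts tested were 1 h, 6 h and 12 h against the control.

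The larvae carried the transgenes Tg (flk1:eGFP; gata1:dsRed), which mark endothelium green and erythroid cells red, in every group, control included. The 5 groups of 3 libraries were venous tissue without injury or thrombus (control) and thrombus tissue taken 1, 3, 6 and 12 h after laser damage to venous endothelium behind the anal pore. Per the labels, cells were taken by laser-capture microdissection from frozen sections, 20 µm thick. The sources used here do not give the age of the larvae. The labels do not tie libraries to animals, and whether 2 libraries came from 1 animal, or 1 library from several, is unknown. The p-values therefore rest on differences among libraries, part of which may be technical, and could be larger if counted over animals. Injury cannot be told apart from time and handling, because 1 control group served all times. By the submitters' account the clot starts at 1 h, peaks at 3 h, is stable at 6 h and regresses at 12 h. Values of a group are given below in the order of libraries A, B and C.

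When a vessel wall is damaged, thrombocytes, the nucleated fish counterparts of platelets, and fibrin close the gap, and plasmin later dissolves the fibrin. Injured cells first transcribe immediate early genes, which encode transcription factors such as those of the FOS and JUN families. A later set of genes follows, which includes protease inhibitors, cytokines, adhesion proteins, metabolic enzymes and proteins that store iron or limit cell death. The roles named below are those known for each gene, mostly from mammals.

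The libraries held 12487395 to 15652440 reads, recovered from the FPKM values, and 10953 to 16337 genes were above 0 in a library. The captured tissue was rich in muscle: 27 skeletal muscle markers summed to 117842 to 263064 FPKM. The endothelial markers kdrl and cdh5 were present but low, at 0.0276 to 7.2 and 0.189 to 5.15 FPKM over all libraries. The neutrophil gene lyz reached at most 0.693 FPKM and the macrophage gene MPEG1 at most 2.92 FPKM. The lists they belong to held more. The neutrophil list summed to 157 to 287 FPKM at 3 h, against 68.2 to 108 FPKM in the control. For the macrophage list these sums were 74.8 to 639 FPKM and 67.2 to 140 FPKM. The neutrophil list names MMP9 and mmp13a, proteases that the member rule left out by name. Of its 12 kept genes, 6 had their highest group mean at 3 h. The part of single genes in these sums was not tested. Epidermal transcripts varied strongly between captures: krt4, an epidermal keratin, ranged over 12.4 to 2212 FPKM. One 1 h column carried the letter B, which no title of a 1 h sample has, so it was placed in the 1 h group only; it is called 1 h library B here. In bulk tissue, fewer cells of a type and less RNA per cell cannot be told apart.

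As a set, the members were high at 3 h and near the control at the other times, except in 1 h library B. Relative to the control mean, their mean log2(FPKM + 1) was -0.27, 0.04 and 0.23 in control libraries A, B and C, 0.17, 0.97 and 0.04 at 1 h, 3.24, 2.55 and 2.47 at 3 h, 0.09, 0.04 and 0.08 at 6 h, and 0.04, 0.19 and 0.39 at 12 h. The 3 h libraries stood far above every other library, as the choice of members fixes. The 6 h libraries lay within the range of the control libraries, which the rule favours, since it takes no gene with a 6 h library as high as its lowest 3 h library. The rule also holds the 1 h and 12 h means at least 1.5 below the 3 h mean. The summed level of the members was 13516, 7179 and 6716 FPKM at 3 h, against 912, 1208 and 1653 FPKM in control libraries. The next highest was 1 h library B with 4549 FPKM, and the other 1 h, 6 h and 12 h libraries held 1011 to 2047 FPKM.

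**Figure D1:**
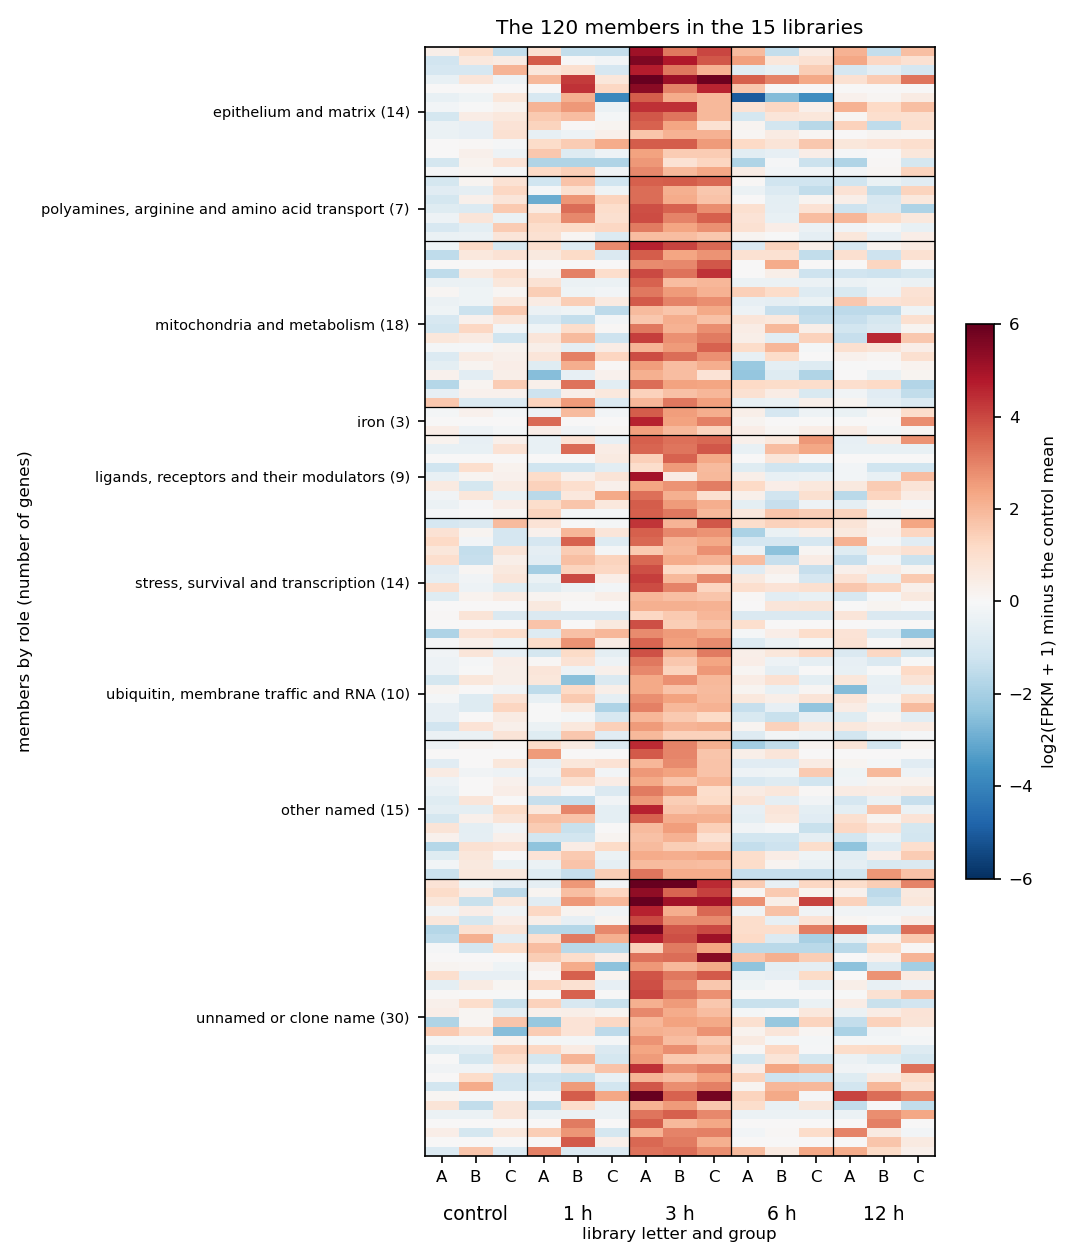
Each row is 1 of the 120 members, grouped by role and ordered by margin, and each column 1 of the 15 libraries, with the groups in order of time. Colour is log2(FPKM + 1) minus the control mean, so red is above the control. The 3 columns at 3 h are mostly red, which the choice of members fixes, 1 h library B is red in part, and the 6 h columns are mostly pale.

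The margin, the 3 h mean less the next highest group mean on the log2 scale, ran from 1.5 to 3.71 with a median of 1.8. The next highest group was 1 h for 49 members, 6 h for 29, 12 h for 29 and the control for 13. Leaving out 3 h library C, 308 genes met the rule, 114 of them among the 120. Without 3 h library A, 107 genes met it, and only 79 of them were among the 120. That was the smallest overlap when 1 library was left out. In 80 members the lowest 3 h library lay above all 12 other libraries. The rule set this for the control and 6 h libraries. It favours it for the others, by holding the 1 h and 12 h means at least 1.5 below the 3 h mean. The share over all genes is not given here, so the count is only a description of the choice. Mean 3 h levels ran from 3.33 to 1399 FPKM, with a median of 17.9 FPKM; 91 members had at least 10 FPKM and 16 at least 100 FPKM. The median over members of the reads in their lowest 3 h library was 299. Only ENSDARG00000113150 and dre-mir-2184 had fewer than 10 reads there, and both are named here after their values were seen. In the control, 47 members were listed at 0 in at least 1 library and 10 in all 3.

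Members that build or remodel epithelium, matrix and the cell cortex formed a group of 14, assigned by gene name. The clade B serpin serpinb14, a relative of intracellular protease inhibitors, had 0, 2.36 and 2.12 FPKM in the control, 25.9, 1.24 and 0.976 FPKM at 1 h, 104.3, 60.2 and 28.2 FPKM at 3 h, 11.0, 2.47 and 3.09 FPKM at 6 h, and 9.78, 4.18 and 3.15 FPKM at 12 h. Its 6 h and 12 h libraries lay above all control libraries, and at 1 h only library A did.

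ITGB4, the integrin subunit of hemidesmosomes, which anchor epithelium to the basement membrane, had 1.23, 5.35 and 6.32 FPKM in the control, 12.8, 15.9 and 3.4 FPKM at 1 h, 60.9, 42.8 and 17.2 FPKM at 3 h, 1.24, 6.82 and 6.46 FPKM at 6 h, and 4.17, 8.46 and 8.22 FPKM at 12 h. Its 3 h libraries overlapped no other library. Its partner subunit ITGA6 had 0, 2.34 and 0.0736 FPKM at 3 h, against 0, 0.331 and 0.568 FPKM in the control. The hemidesmosome collagen col17a1a had 23.1, 12.3 and 6.4 FPKM at 3 h, against 28.5, 25.2 and 20.1 FPKM in the control.

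The tight junction protein cldnb had 70.0, 82.3 and 158 FPKM in the control, 49.9, 424 and 5.71 FPKM at 1 h, 1214, 453 and 374 FPKM at 3 h, 2.1, 15.0 and 6.41 FPKM at 6 h, and 115, 107 and 136 FPKM at 12 h. Its 6 h libraries lay below all control libraries and its 12 h libraries overlapped them. ANXA2, annexin A2, a calcium-dependent membrane protein that also binds plasminogen and its activator at the cell surface, had 19.3, 21.1 and 25.3 FPKM in the control, 91.3, 136 and 16.7 FPKM at 1 h, 476, 482 and 88.0 FPKM at 3 h, 40.2, 52.6 and 27.4 FPKM at 6 h, and 95.3, 51.9 and 78.6 FPKM at 12 h. It stayed above all control libraries at 6 h and 12 h. CNN2, the actin-binding calponin 2, had 13.7, 14.2 and 12.6 FPKM in the control, 30, 40.8 and 67.0 FPKM at 1 h, 177, 179 and 84.5 FPKM at 3 h, 32.3, 23.5 and 43.0 FPKM at 6 h, and 22.2, 24.5 and 28.5 FPKM at 12 h. Every injured library lay above every control library for CNN2. PLEK2, pleckstrin 2, an actin regulator, was listed at 0 in every library of the control and of 12 h and had 42.0, 6.77 and 22.9 FPKM at 3 h. It also reached 19 FPKM in 1 h library B, against 0 and 1.34 FPKM in the other 1 h libraries. The secreted phosphoprotein gene scpp8 had 89.0, 23.0 and 41.7 FPKM at 3 h, against 2.37, 4.73 and 0 FPKM in the control.

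As a list mean, epidermal markers were high in 2 of the 3 h libraries and low in the other. The list was mixed: 8 of its 26 kept markers had their highest group mean at 3 h. The keratin krt4 was at 12.6 to 262 FPKM there, against 409 to 468 FPKM in the control. Over 26 kept epidermal markers, among them cldnb and ITGB4 as the members, the mean log2 level stood at 1.44, 1.02 and -1.24 from the control mean at 3 h. The 14 members of the epithelial role group were at 3.95, 2.96 and 2.63 there. The members outside this role group and list were at 3.15, 2.5 and 2.45 in the same libraries, beside 3.24, 2.55 and 2.47 for all members. The rule takes only genes whose lowest 3 h library lies above all control libraries, so any group of members is high in all 3 h libraries. At 12 h the epidermal markers were at 1.19, 0.81 and 1.33 and the members at 0.04, 0.19 and 0.39. The part of epidermal tissue in the members' levels was not tested.

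**Figure D2:**
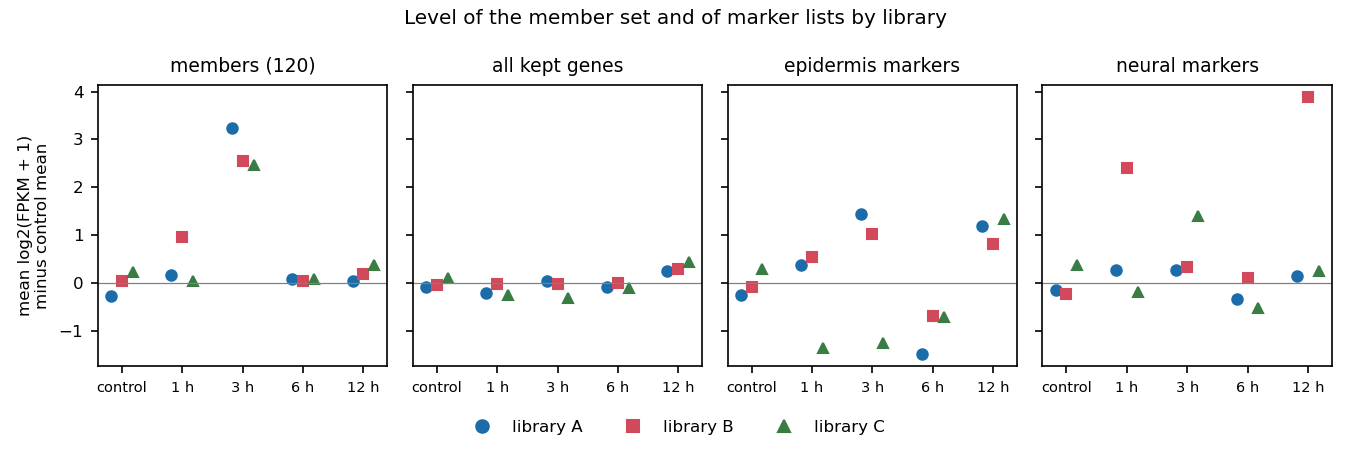
Mean log2(FPKM + 1) relative to the control mean in each library for the 120 members, all 13051 genes, the 26 epidermal markers and the 21 neural markers. Points are single libraries, A as circles, B as squares and C as triangles. Of the 4 sets, only the members stand high in all 3 libraries at 3 h, which the choice of members fixes. Lists not drawn were high there too, among them the glucocorticoid response list at 2.3, 1.59 and 1.63.

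Polyamines are small cations made from ornithine that growing cells need; arginase supplies ornithine, ornithine decarboxylase starts their synthesis and antizymes destroy that enzyme. Of these steps, arginase (ARG2) and antizyme (oaz2b) had members, and ornithine decarboxylase (ODC1) narrowly missed. The members SAT1 and SMOX act on polyamines already made. The antizyme oaz2b had the largest margin of any named member, 3.55, with 0.113, 1.6 and 3.27 FPKM in the control, 0, 6.57 and 0 FPKM at 1 h, 27.1, 27.6 and 23.8 FPKM at 3 h, 1.45, 0 and 0 FPKM at 6 h, and 0, 0.726 and 0.457 FPKM at 12 h. Its 3 h libraries were nearly equal. SAT1, the acetyltransferase that opens polyamine breakdown, had 66.1, 73.8 and 252 FPKM in the control, 103, 209 and 91.0 FPKM at 1 h, 1120.3, 472 and 329 FPKM at 3 h, 84.1, 60.4 and 38.5 FPKM at 6 h, and 196, 38.3 and 269 FPKM at 12 h. Under that symbol 3 gene IDs were summed, and such copies may share reads. SMOX, the oxidase that turns spermine back into spermidine, had 107, 48.7 and 32.8 FPKM at 3 h, against 4.02, 12.0 and 16.5 FPKM in the control, and 1 h library B overlapped the 3 h libraries at 64.9 FPKM. ARG2, the mitochondrial arginase, had 188, 151 and 90 FPKM at 3 h, against 6.87, 6.37 and 37.4 FPKM in the control. At 1 h it had 17.6, 132.5 and 25.8 FPKM, so 1 h library B lay above 3 h library C. At 12 h it had 4.52, 6.08 and 2.58 FPKM, below all control libraries.

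The rest of the polyamine pathway was mixed. ODC1, ornithine decarboxylase, missed membership with a margin of 1.498: it had 0.278, 7.09 and 1.99 FPKM in the control, 24.5, 40.9 and 18.2 FPKM at 1 h, 109, 48.2 and 84.2 FPKM at 3 h, 4.05, 6.01 and 7.48 FPKM at 6 h, and 5.61, 1.17 and 11.2 FPKM at 12 h. Its 1 h libraries already lay above all control libraries (log2 difference 3.13 ± 0.7 SE), although the limma adjusted p of 0.0748 missed the threshold. The synthases further down the pathway differed from each other. SMS, spermine synthase, had 3.14, 0 and 1.53 FPKM at 3 h, against 19, 23.4 and 10.5 FPKM in the control. SRM, spermidine synthase, had 16.0, 0.377 and 0.908 FPKM at 3 h, against 10.2, 10.2 and 10.5 FPKM in the control, so library A lay above all control libraries and libraries B and C below them. The antizymes other than oaz2b differed too. OAZ1, the most abundant of them, had 714.1, 487.6 and 515.2 FPKM at 3 h, against 209.1, 249.8 and 259.7 FPKM in the control, and missed the set with a margin of 0.99. The level of OAZ2 was 20.8, 59.9 and 52.1 FPKM at 3 h, against 46.0, 37.5 and 38.2 FPKM in the control, with overlap. The copy oaz1b had 81.8, 31.3 and 31.1 FPKM at 3 h, against 133, 119.8 and 141 FPKM in the control. The amino acid transporters SLC7A3, SLC1A5 and SLC7A8, which carry cationic, neutral and large neutral amino acids, completed the group of 7. SLC7A3 had 28.2, 14.5 and 22.3 FPKM at 3 h, against 0.568, 2.23 and 0.482 FPKM in the control.

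The largest role group, 18 members, held mitochondrial and metabolic genes. The uncoupling protein UCP2, a carrier of the inner mitochondrial membrane, had 45.9, 115 and 100.3 FPKM in the control, 136, 657 and 196 FPKM at 1 h, 1223, 834 and 551 FPKM at 3 h, 57.0, 176 and 81.3 FPKM at 6 h, and 95.6, 88.0 and 159.8 FPKM at 12 h. At 1 h all 3 libraries were above all control libraries, and library B exceeded 3 h library C. Its neighbour ucp3 had 6.86, 31.3 and 43.9 FPKM in the control, 25.6, 182 and 46.1 FPKM at 1 h, 355, 215 and 451 FPKM at 3 h, 21.7, 28.0 and 8.43 FPKM at 6 h, and 9.01, 8.49 and 10.0 FPKM at 12 h. The third family gene, UCP1, was no member, with a margin of 1.19: it had 74.6, 53.8 and 25.9 FPKM at 3 h, against 2.17, 0.0509 and 13.5 FPKM in the control, and was near 0 at 6 h. Its 1 h library B, at 65.5 FPKM, and its 12 h library C, at 38.7 FPKM, overlapped its 3 h libraries.

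PGP, phosphoglycolate phosphatase, had 46.0, 31.0 and 19.7 FPKM at 3 h, against 0.624, 3.34 and 0 FPKM in the control. ACSL4, which activates long-chain polyunsaturated fatty acids, had 79.0, 32.5 and 40.8 FPKM at 3 h, against 1.25, 8.94 and 10.7 FPKM in the control. PPP1R3G, a subunit that brings a phosphatase to glycogen, was listed at 0 in every library of the control and of 1 h and had 6.24, 6.29 and 12.3 FPKM at 3 h. These genes share no single pathway. The gamma-glutamyltransferase ggt1a, which cleaves extracellular glutathione, had 13.8, 3.49 and 3.92 FPKM at 3 h, against 0, 0 and 0.984 FPKM in the control. The monocarboxylate transporter family gene SLC16A6 had 16.4, 10.6 and 7.46 FPKM at 3 h, against 1.14, 0.675 and 1.14 FPKM in the control. ALDOC, a glycolytic aldolase, had 44, 16.2 and 21.6 FPKM at 3 h, against 3.12, 2.67 and 0.131 FPKM in the control. In ALDOC the highest library of all was 12 h library B with 58.6 FPKM, the library in which neural markers were highest, at a mean of 3.88 above the control; their part in this value was not tested.

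Iron handling was represented by 3 members. The ferritin heavy chain-like gene fthl27, whose product stores iron, was the most abundant member: it had 168, 217.5 and 167 FPKM in the control, 149.9, 677 and 161 FPKM at 1 h, 2313, 1058 and 827 FPKM at 3 h, 232.5, 90 and 147 FPKM at 6 h, and 137, 199.8 and 384 FPKM at 12 h. Its low relative fthl30 had 5.93, 3.86 and 2.1 FPKM at 3 h, against 0.665, 0 and 0.167 FPKM in the control. A further copy, fthl31, met the member numbers with a margin of 2.39 and was left out by name. It had 207, 115 and 131 FPKM at 3 h, against 17.8, 6.32 and 1.18 FPKM in the control. The remaining ferritin copies had other patterns. The gene between fthl27 and fthl30 on the chromosome, fthl28, had 272, 96.1 and 31.0 FPKM at 3 h, against 5.1, 0.144 and 11.8 FPKM in the control. Its 6 h libraries, at 77.5, 81.2 and 103 FPKM, lay above those of the control and kept it out of the set (6 h against control, limma adjusted p = 0.495). The main heavy chain gene fth1a had 543, 612 and 531.5 FPKM at 3 h, against 821, 826 and 604 FPKM in the control. Ferritin copies are similar in sequence, and how the counting split reads among them is not given in the sources used here, so the level of each copy is uncertain. The hormone gene hamp, hepcidin, which blocks iron export from cells, had 23.7, 4.37 and 7.19 FPKM at 3 h and was listed at 0 in the 3 control libraries; it was also present in 1 h library A at 9.47 FPKM and in 12 h library C at 5.82 FPKM.

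Among 9 ligands, receptors and their modulators, levels were lower, with mean 3 h values of 5.37 to 28.5 FPKM. The cytokine il11b, of the interleukin 6 family, had 0, 0 and 1.42 FPKM in the control, 0, 13.0 and 0.8 FPKM at 1 h, 14.2, 11.3 and 16.9 FPKM at 3 h, 0, 3.92 and 5.78 FPKM at 6 h, and 0 FPKM in all 3 libraries at 12 h. It was even across the 3 h libraries, and 1 h library B matched them. Its paralog il11a was not kept, with 0.821, 0 and 19.7 FPKM at 3 h, and the receptor il11ra had 3.84, 8.48 and 3.25 FPKM at 3 h, against 3.58, 3.65 and 2.21 FPKM in the control.

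FSTL3 and FST, secreted antagonists of activin, were both members. FSTL3 had 0.636, 0 and 0.749 FPKM in the control, 0.0464, 1.49 and 0 FPKM at 1 h, 15.8, 13.0 and 14.5 FPKM at 3 h, 0.745, 1.19 and 7.72 FPKM at 6 h, and 0, 0.978 and 8.18 FPKM at 12 h. FST, the gene of follistatin, had 17.2, 12.7 and 4.79 FPKM at 3 h, against 0.421, 0.469 and 0.669 FPKM in the control, and its 6 h libraries, at 1.36, 3.88 and 3.26 FPKM, still lay above all control libraries. A pair of intracellular genes of the same signalling family were members too. The gene smad9, which transmits bone morphogenetic protein signals, had 46.8, 22.2 and 16.6 FPKM at 3 h, against 2.09, 2.71 and 4.17 FPKM in the control. SKIL, a repressor of SMAD-driven transcription, had 29.1, 12.4 and 4.94 FPKM at 3 h, against 1.58, 3.89 and 1.19 FPKM in the control. F2RL2, a protease-activated receptor of the family through which thrombin acts on cells, had 1.69, 10.7 and 3.76 FPKM at 3 h, with library B highest, and was listed at 0 in the 3 control libraries.

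Stress, survival and transcription genes made up 14 members. CEBPB, a transcription factor of acute responses, had 20.7, 26.7 and 51.3 FPKM in the control, 22.6, 488 and 40.2 FPKM at 1 h, 559, 119.9 and 232 FPKM at 3 h, 46.0, 33.5 and 14.7 FPKM at 6 h, and 56.3, 22.0 and 93.2 FPKM at 12 h. Its 1 h library B lay above 3 h libraries B and C, and its other 1 h libraries overlapped the control. GADD45B, induced by growth arrest and DNA damage, had the smallest margin, 1.502: it had 19.4, 25.8 and 16.8 FPKM in the control, 44.8, 138 and 29.3 FPKM at 1 h, 239, 118 and 152 FPKM at 3 h, 11.5, 15.9 and 18.6 FPKM at 6 h, and 37.9, 21.0 and 26.0 FPKM at 12 h. It was above all control libraries at 1 h, and 6 h libraries A and B were below them. The kinase gene sgk1, a serum and glucocorticoid target, had 39.0, 7.46 and 26.5 FPKM at 3 h, against 0.0283, 0.138 and 6.67 FPKM in the control.

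Genes that promote and genes that oppose cell death were among the members. The pro-apoptotic pmaip1, known as Noxa, had 13.2, 7.69 and 2.92 FPKM in the control, 8.53, 30.6 and 12.0 FPKM at 1 h, 93.6, 57.6 and 49.5 FPKM at 3 h, 1.09, 4.9 and 8.74 FPKM at 6 h, and 10.9, 8.32 and 17.9 FPKM at 12 h. The anti-apoptotic BCL2L1 had 67.0, 9.73 and 8.59 FPKM at 3 h, against 1.91, 3.97 and 5.84 FPKM in the control, and 2 of its 1 h libraries, at 10.8 and 10.1 FPKM, overlapped 3 h libraries B and C. The eIF2 alpha phosphatase subunit ppp1r15a, which restarts translation after stress, had 15.8, 20.6 and 36.3 FPKM at 3 h, against 8.14, 1.07 and 8.59 FPKM in the control. The leucine zipper gene tsc22d3, a glucocorticoid target, had 28.6, 11.7 and 10.1 FPKM at 3 h, against 4.48, 0.0379 and 2.43 FPKM in the control. In this group hif1al, a hypoxia-inducible factor alpha subunit, had 78.6, 69.8 and 62.1 FPKM at 3 h, against 11.3, 22.0 and 27.5 FPKM in the control.

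Another 10 members serve ubiquitin transfer, membrane traffic or RNA. BZW1, a regulator of translation initiation, had 69.4, 80.3 and 113 FPKM in the control, 90, 157 and 69.6 FPKM at 1 h, 776, 263 and 443 FPKM at 3 h, 114, 68.4 and 58.0 FPKM at 6 h, and 61.6, 46.4 and 84.5 FPKM at 12 h. RO60, which binds misfolded small RNAs, had 28.2, 7.85 and 16.5 FPKM at 3 h, against 0.764, 2.36 and 0.445 FPKM in the control. The zinc finger gene zfand5b had one of the 3 smallest margins, 1.514, with 366, 251.5 and 249 FPKM at 3 h and 56.6, 290.0 and 58.3 FPKM at 1 h, so 1 h library B lay within the 3 h values. Another 15 named members fell into no role. The largest margin in this group was that of nccrp1, an F-box-related gene found in fish cytotoxic cells, with 93.2 ± 76.7 FPKM at 3 h, against 7.26 ± 1.54 FPKM in the control (SD, n = 3 each); its 3 h libraries overlapped no other library. RCAN2, an inhibitor of calcineurin, had a margin of 1.506 and was listed at 0 in all 3 libraries at 6 h. The remaining 30 members had only a clone name or an Ensembl identifier; their margins ran to 3.71 with a median of 2.0, and the highest, si:ch211-117l17.6, had 110.8, 86.6 and 31.0 FPKM at 3 h, against 1.53, 0.212 and 0 FPKM in the control.

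**Figure D3:**
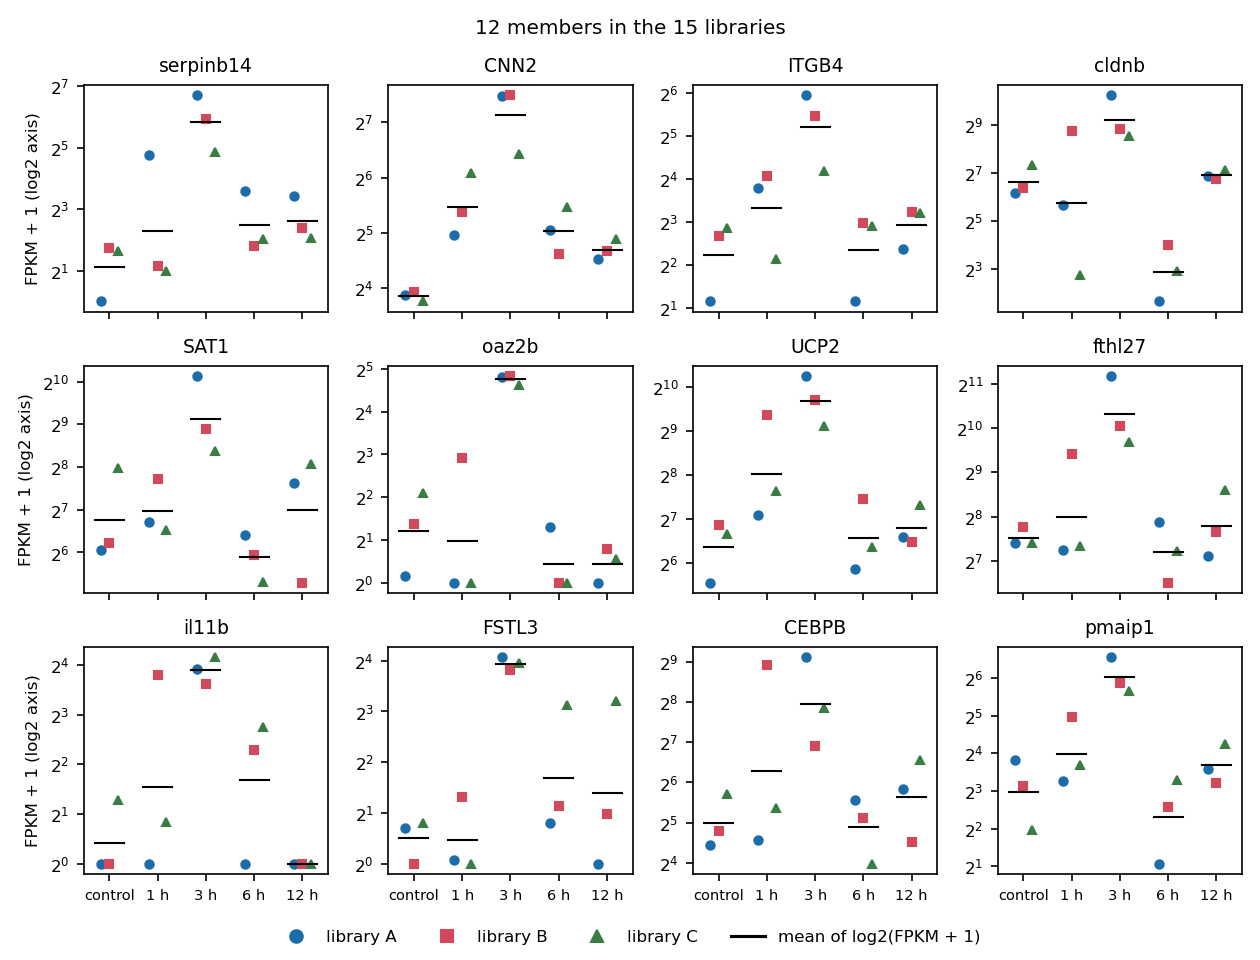
FPKM + 1 on a log2 axis for 12 members in control, 1 h, 3 h, 6 h and 12 h libraries; symbols are single libraries and bars the mean on the log2 scale. CNN2 and serpinb14 lie above the control in all 6 h libraries, cldnb lies below it at 6 h, and CEBPB and il11b are high in 1 h library B.

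The other genes of the pathways were taken from 16 lists, chosen with earlier results of these data known. As a yardstick, 18.6% of all kept genes had their highest group mean at 3 h. That share was 18 of 23 genes for glucocorticoid response, with 3 members (sgk1, tsc22d3 and GADD45B), and 24 of 32 for STAT3 and cytokine receptor signalling, also with 3 (hamp, il11b and CEBPB). It was 20 of 38 for immediate early genes, 20 of 47 for Nrf2 targets, 8 of 19 for polyamine, amino acid and nucleotide metabolism, 19 of 50 for hypoxia and glycolysis and 7 of 41 for the unfolded protein response. The share was 20 of 47 for wound epidermis and keratins, 13 of 38 for extracellular proteases and 10 of 34 for the cytoskeleton. For cytokines and chemokines it was 8 of 24, for haemostasis 8 of 23 and for iron and haem handling 4 of 16. It was 11 of 30 for NF-kappaB genes, 12 of 28 for heat shock genes and 8 of 26 for muscle injury, which held no member; with members at 0.919% of all kept genes, a count of 0 in lists of this size is near the background. Of these lists, 1 heat shock gene and 1 muscle gene met the numbers and had been left out by name. In all, 23 members belonged to at least 1 list. These counts use the 3 h values that chose the members, so they describe and do not test.

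The same lists were read at 1 h, where 29 of 13051 genes differed from the control by limma, 0.222% of those tested. That count was 7 without control library A, 10 without control library B or C, 12 without 1 h library A and 53 without 1 h library B. Among immediate early genes 4 of 38 rose (FOS, FOSB, FOSL1 and FOSL2) and none fell. In the muscle injury list 2 of 26 rose (tcap and nmrk2). In each of 5 lists 1 gene rose and none fell: STAT3 signalling (SOCS3, of 32), Nrf2 targets (HMOX1, of 47), iron handling (HMOX1, of 16), hypoxia and glycolysis (BHLHE40, of 50) and polyamine, amino acid and nucleotide metabolism (nmrk2, of 19). In the unfolded protein list 1 of 41 fell (nupr1a), and in the cytoskeleton list 1 of 34 fell (CDC42EP3). The remaining 7 lists had no called gene in either direction. None of the genes called in these lists was a member. This was partly set by the rule: FOSL1, HMOX1 and tcap met the member numbers and were left out by name. At 6 h and 12 h no gene passed, 0.0% of those tested in both, so no list had a called gene there. At an unadjusted p under 0.05, 721 genes passed at 6 h and 992 at 12 h, and voom called 1 gene at 6 h and 0 at 12 h.

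None of the 120 members was called at 1 h, 6 h or 12 h against the control, which is near the background of 0.222%, 0.0% and 0.0% of all genes. FOSL1, HMOX1 and tcap, called at 1 h, would have been members but for their names. At an unadjusted p under 0.05, 9 members (7.5%) passed at 1 h, against 9.33% of all genes, 6 (5.0%) at 6 h, against 5.52%, and 5 (4.17%) at 12 h, against 7.60%. Each share was near or below the background. With limma's voom on the recovered reads no member was called either. CNN2 had the smallest adjusted p at 1 h: 45.9 FPKM on average at 1 h and 13.5 FPKM in the control, higher in 3 of 3 libraries (log2 difference 1.62 ± 0.42 SE, limma adjusted p = 0.161). The next was UCP2 (log2 difference 1.67 ± 0.55 SE, limma adjusted p = 0.325), which also missed the threshold.

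Before the peak, the members as a group sat slightly above the control, by an amount that varied with the libraries used. The rule bears on this: it keeps every control library below the lowest 3 h library but limits 1 h only by its mean. The size of that effect was not tested. The median log2 difference at 1 h was 0.29 for members and -0.12 for all genes, and 88 of 120 members (73.3%) had a positive difference, against 43.2% of all genes. Without 1 h library B the medians were 0.13 for members, with 65 positive, and -0.18 for all genes. The members' median was 0.47 without 1 h library A and 0.57 without 1 h library C, with -0.11 for all genes in both, and 0.19 without control library A. Of 115 members above 0 in at least 1 of the 1 h libraries, library B was the highest for 59 (51.3%), against 39.4% of such genes. In 1 h library B the immediate early list was at a mean of 2.41 above the control and neural markers at 2.4, beside 0.97 for the members; their part in the members' level was not tested. All 1 h libraries lay above all control libraries in 7 members (5.83%), against 4.77% of genes: CNN2, GADD45B, RGS2, SLC7A3, UCP2, smad9 and si:ch211-264f5.2. All lay below in 1, the claudin cldna, against 8.47% of genes; cldna was listed at 0 in the 3 libraries of 1 h and had 0.642, 3.06 and 5.17 FPKM in the control.

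After the peak, 6 h levels, which the rule holds below the lowest 3 h library, spread to both sides of the control. The median log2 difference was 0.09 for members, with 66 of 120 positive (55.0%), and -0.02 for all genes, with 47.9% positive. The sign for members turned with 1 library: their median was -0.04 without control library A, with 57 positive, and -0.04 without 6 h library A, with 54 positive. It was 0.04 without control library B or 6 h library B and 0.17 without control library C. In 7 members (5.83%) all 6 h libraries lay above all control libraries, against 6.32% of genes; these included serpinb14, ANXA2, CNN2 and FST. In 10 (8.33%) all lay below, against 6.56% of genes, among them cldnb, GCH1, IRS2, GPCPD1, RCAN2, TMCC3, TMEM127 and TRAK1. For RCAN2 this order may rest on few reads, since control library A had only 0.0492 FPKM. For cldnb the mean was 7.84 FPKM at 6 h and 103.5 FPKM in the control (log2 difference -3.77 ± 1 SE, limma adjusted p = 0.49). Epidermal markers as a list were also lower at 6 h, at -1.47, -0.69 and -0.71 relative to the control; their part in the cldnb value was not tested.

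By 12 h the members lay no higher than other genes. The rule favours this, since it takes only genes whose 12 h mean is at least 1.5 below the 3 h mean. The members' median log2 difference was 0.24, against 0.32 for all genes, and 72 of 120 were positive (60.0%), against 68.1% of all genes. Without 12 h library C the members' median was 0.0, with 57 positive, and without control library A it was 0.05, with 61 positive; the medians of all genes were then 0.25 and 0.28. It was 0.13 without 12 h library B and 0.16 without control library B. Under median ratio scaling these medians were 0.0 and 0.09, so the offset from the control at 12 h was smaller for both under that scaling. In 10 members (8.33%) all 12 h libraries lay above all control libraries, against 12.2% of genes, among them serpinb14, ANXA2 and CNN2 again, GCH1, atp5meb, fgf1b, mala.2 and 2 clone-named genes. All lay below in 4 (3.33%), against 2.61% of genes, among them ARG2, hint1 and ube2al. ANXA2 averaged 75.2 FPKM at 12 h and 21.9 FPKM in the control (log2 difference 1.7 ± 0.68 SE, limma adjusted p = 0.603).

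**Figure D4:**
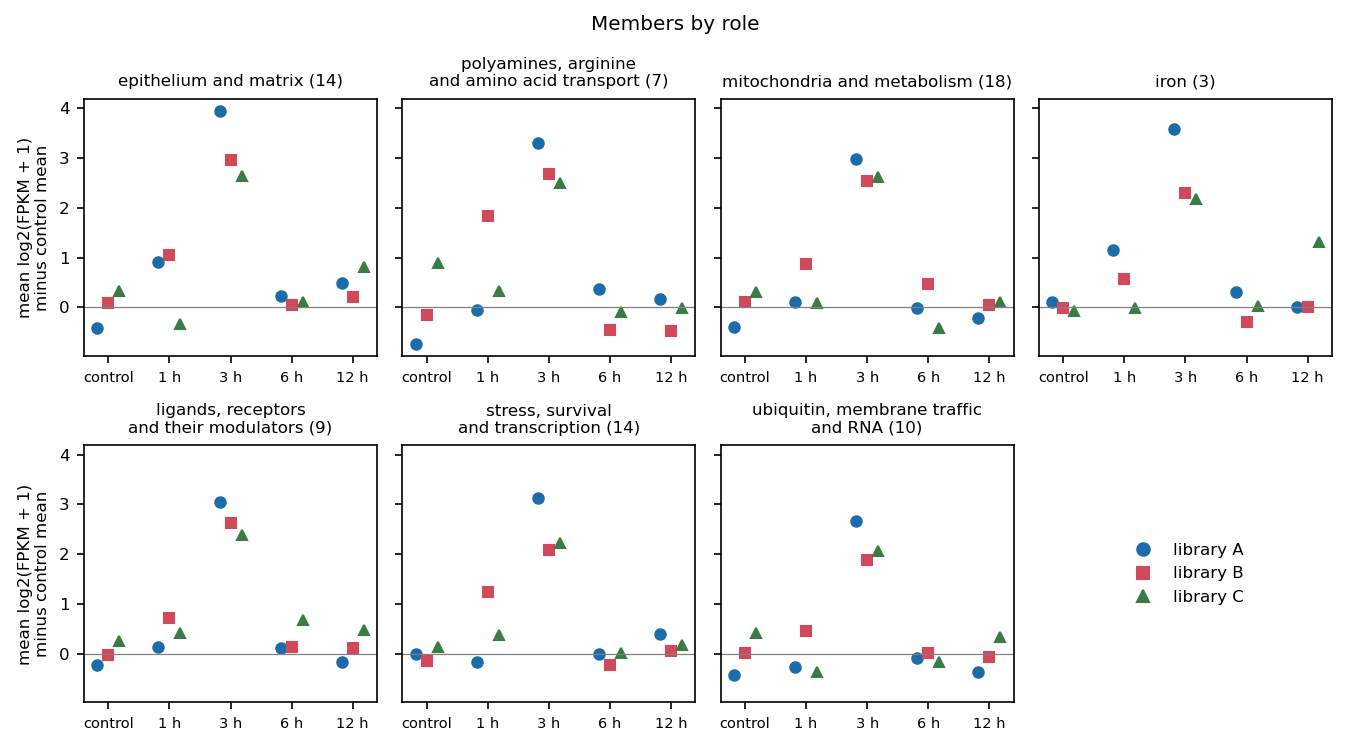
Mean log2(FPKM + 1) relative to the control mean for the 7 role groups in each library, with the number of members in brackets. In every group the 3 h libraries lie highest, which the choice of members largely fixes, with library A on top. After them, 1 h library B is the next highest in all groups except iron, where 12 h library C is.

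Within 3 h the 3 libraries were not alike. Library A was the highest for 86 members (71.7%), against 42.1% of all genes, library B for 19 and library C for 15, and library C was the lowest for 59. The ratio of the highest to the lowest 3 h FPKM had a median of 2.33; it was at most 2 in 40 members and above 4 in 22. The most even were hint1, a nucleotide hydrolase, with 61.7, 60.7 and 58.9 FPKM, and SALL1, a zinc finger transcription factor, with 3.42, 3.33 and 3.23 FPKM. The least even was RGS2, which speeds the shut-off of G protein signals, with 42.9, 0.902 and 4.22 FPKM, a ratio of 47.5. Its 3 h library B lay within the 1 h values of 1.88, 0.67 and 1.31 FPKM. Library A also had the highest epidermal markers of the 3 h group, with 11926 FPKM summed over the list, and libraries B and C had 7439 and 2165 FPKM; their part was not tested.

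Marker lists of other cell types also differed in level at 3 h. Neutrophil markers (12 kept of 15) summed to 157 to 287 FPKM at 3 h and 68.2 to 108 FPKM in the control, with lyz at 0 to 0.257 FPKM at 3 h. The list names MMP9 and mmp13a, which the member rule left out by name. Thrombocyte markers (7 kept of 11) summed to 79.5 to 139 FPKM at 3 h and 26.8 to 29.2 FPKM in the control, and to 67.7 to 83.1 FPKM at 1 h. Neural markers were at 0.27, 0.33 and 1.41 in 3 h libraries A, B and C. Notochord and cartilage markers (15 kept of 19) were lower, at -2.77, -1.17 and -1.02, and summed to 65.0 to 210.3 FPKM at 3 h and 257.6 to 966.8 FPKM in the control. Endothelial markers (24 kept of 28) were at -0.3, -0.73 and -0.89 at 3 h and summed to 35.5 to 81.4 FPKM, against 79.9 to 123.8 FPKM in the control. Macrophage markers were at 0.46, -0.02 and -0.4, erythroid markers at 0.0, -0.51 and 0.28, muscle markers at -0.48, -0.22 and 0.13, and fin fold and fibroblast markers at 1.0, 0.96 and -0.02. No neutrophil, macrophage, erythroid, thrombocyte, endothelial, muscle, neural, notochord or fibroblast marker was a member, in lists of 7 to 25 kept genes, a count near the background at 0.919% of all kept genes. The part of these cell types in the 3 h levels was not tested.

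Placed by symbol in the RefSeq gene table of assembly GRCz12tu, 89 members lay on all 25 chromosomes, at most 10 on any one. On chromosome 10, ucp3, UCP2 and DNAJB13, a chaperone of motile cilia, followed one another with no protein-coding gene between. DNAJB13 had 13.5, 1.79 and 2.35 FPKM at 3 h and was listed at 0 in the control. On chromosome 3, fthl27 and fthl30 were separated by fthl28, and on chromosome 22 RGS2 and si:ch211-117l17.6 by rgs13b. Overlap of transcripts between such neighbours was not analysed here. Just outside the set on the margin alone lay ODC1 (1.498), si:ch73-212j7.3 (1.497) and LMBRD2 (1.495), and just inside it zfand5b, RCAN2 and GADD45B.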

How the data were processed

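RNA from laser-captured tissue was sequenced in 15 libraries, 3 for each of 5 groups. Per the labels' protocols and the submitters' processing notes, the authors aligned paired-end reads with HISAT to GRCz11 (Ensembl release 106) and made the deposited FPKM with StringTie and edgeR; their versions are unknown here. The table covers 32520 gene IDs, and 3 further columns that match no sample were not used. IDs took their symbol from a gene name table (29201 matched) and FPKM were summed over IDs with 1 symbol, giving 28103 genes, of which 13051 reached an FPKM of 1 in 3 libraries. Of the members, 13 are such sums, so reads may be divided among their copies.

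Whole reads could be recovered from the FPKM, to within 0.001 reads, for all 20690 IDs detected in 2 libraries or more. A count of 0 allows up to 3 reads, which for 2000 bases is 0.0958 to 0.12 FPKM and covers counting error only. The test was limma 3.58.1 (R 4.3.3, eBayes with trend, two-sided) on log2(FPKM + 1), with all 15 libraries in 1 fit; p-values were adjusted by Benjamini-Hochberg across the 13051 genes and called under 0.05. The log2(FPKM + 1) scale understates the change of low genes. The script was tested on simulated data. Python 3.11.15 and matplotlib 3.10.9 made the tables and plots.

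The members and the gene lists were chosen with earlier results of these data known, and the role groups were assigned from gene names after membership was seen. Values are given for the 25 named members with the largest margin, members of the pathway lists, members next to each other in the genome and genes at the edge of the rule; other genes named, among them members of a role group, pathway partners and the most and least even members, were chosen after their values were seen. Of the genes these rules take, 2 are not reported here and stay in the counts and means. Sequences and promoters were not analysed here.

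Alternatives were a pseudocount of 0.1, no filter, margins of 1 and 2, median ratio scaling, 1 value per gene ID, voom on recovered reads, only the 2 groups compared, a replicate block and leaving out each library.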

Additional observations from a re-analysis of the deposited data

Results flagged for a closer look

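GCH1, the enzyme that starts tetrahydrobiopterin synthesis, was a member whose 6 h and 12 h libraries fell on opposite sides of the control. It had 0.127, 0.222 and 1.23 FPKM in control libraries A, B and C, 1.03, 3.07 and 1.13 FPKM at 1 h, 17.4, 10.4 and 9.03 FPKM at 3 h, 0.0463, 0 and 0.107 FPKM at 6 h, and 3.44, 1.59 and 1.84 FPKM at 12 h. All 6 h libraries were below, and all 12 h libraries above, the control libraries. The 6 h values and control library A are near 0.0958 to 0.12 FPKM, the level of 3 reads for 2000 bases. That order at 6 h may therefore rest on few reads. Of all genes, 6.56% lay below all control libraries at 6 h and 12.2% above them at 12 h. The 6 h mean of log2(FPKM + 1) lay -1.61 from the 12 h mean; the difference was not tested. Against the control neither time passed the threshold (log2 difference -0.47 ± 0.56 SE at 6 h, limma adjusted p = 1; 1.14 ± 0.56 SE at 12 h, limma adjusted p = 0.666).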

How the results depend on the processing

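The number of genes that meet the member rule depended on its settings. It was 186 with a pseudocount of 0.1, 213 with a margin of 1 and 42 with a margin of 2, against 120. Leaving out 1 library at a time gave 95 to 308 genes, with 308 without 3 h replicate C. It was 157 under median ratio scaling, 129 with 1 value per gene ID and 80 when the lowest 3 h library had to exceed all 12 other libraries, a setting chosen after seeing the data. No member was called against the control at 1 h, 6 h or 12 h under any of the 22 alternatives. Few genes were called at all, 0.222% at 1 h and 0.0% at 6 h and 12 h in the main fit. A count of 0 among 120 members is near that background. Over all genes, the 29 called at 1 h became 16 with no filter, 82 with voom on recovered reads and 0 when only the 2 groups compared were fitted, and the cause was not tested. Leaving out 1 library gave 7 (without control replicate A) to 53 (without 1 h replicate B), with 10 without control replicate B or C and 12 without 1 h replicate A. At 6 h the count of 0 became 1 with voom, and at 12 h it became 6 with no filter; leaving out 1 library gave 0 to 1 at either time. Members low in the control have log2 differences that depend on the pseudocount.

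Control libraries were compared with those of 1 h, 6 h and 12 h for pairing by letter. Deviations from the group means correlated at -0.09 to 0.13 between libraries with the same letter (8 pairs). Between other letters they correlated at -0.13 to 0.14 (16 pairs), so the same letter gave no closer match. The 3 h libraries, and injured times with each other, were not compared, so pairing by letter there is unknown. With the letter as a replicate block, 9 genes were called at 1 h, 1 at 6 h and 0 at 12 h, and no member. The 1 h column whose letter no title has was given a block of its own, which takes it out of the 1 h comparison in that fit.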
